A study of Homo sapiens with 6 samples.

Results

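The 30 genes described here build, attach and remodel the glycosylphosphatidylinositol (GPI) anchor, the glycolipid that holds many proteins on the outer face of the plasma membrane. They were chosen by symbol, from a list of known GPI genes, and not by their levels, though earlier results of these data were known. All 30 were among the 29744 gene symbols of the count table and among the 14958 genes that passed the filter on low counts. RNA was sequenced from 3 lines of human gastric tumour cells, with 2 libraries per line and 6 in all. HER2R (source name MKN45-HER2) is resistant to a HER2-TCB, a T cell bispecific antibody against HER2, and CEAR (source name MKN45-CEAR) is resistant to a CEACAM5-TCB, the like against CEACAM5. MKN45, the established line from which both derive, is labelled sensitive. All grew in DMEM/F-12 with serum, and the treatment field reads none for every library. The labels do not say whether HER2R carries an added HER2 gene or whether either derivative is a single clone. They do not tie libraries to separate cultures either, so a p-value here reflects the spread among these libraries alone, which may be technical.

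GPI anchors are made in the membrane of the endoplasmic reticulum. An enzyme complex adds N-acetylglucosamine to phosphatidylinositol, further enzymes add mannoses and ethanolamine phosphates, and a transamidase then joins the finished anchor to a protein, whose lipid and side chains are later remodelled. CEACAM5, the target of the antibody that CEAR resists, is itself GPI-anchored, as are CEACAM6, CD55 and mesothelin, while HER2 is a transmembrane receptor that needs no such anchor.

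Library totals ran from 39657353 to 57964246 counts. Levels are given in CPM, counts scaled to library size, and 1 count was worth between 0.0177 and 0.0255 CPM. The 6 epithelial markers, with KRT8 the highest, summed to 12034 to 15655 CPM in HER2R, 8381 to 10009 CPM in CEAR and 10688 to 12805 CPM in MKN45. The 6 T cell markers summed to at most 0.408 CPM in any library, the 6 leukocyte and myeloid markers to at most 0.357 CPM, and the 6 endothelial markers to at most 0.255 CPM. CD3D, CD2, CSF1R, CD163, TYROBP, CDH5, KDR and EMCN had 0 counts in all 6 libraries. The 6 fibroblast markers summed to 3.55 to 7.67 CPM in HER2R, 1.15 to 1.81 CPM in CEAR and 0.978 to 1.88 CPM in MKN45, with COL1A1 the largest at up to 7.44 CPM, while COL3A1 and DCN had 0 counts throughout. The part of these markers in the results was not tested.

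Changes were tested with edgeR's quasi-likelihood method over all 14958 genes, and a gene was called at a Benjamini-Hochberg adjusted p under 0.05. Libraries carry a number, 1 or 2, and same-numbered libraries deviated together over all genes. The test was therefore repeated with the number as a term, the replicate block, and its result stands beside each named gene whose call it changes. All 30 GPI genes were detected in all 6 libraries. In HER2R against MKN45, 0 rose, 4 fell (PIGQ, DPM1, PIGT and PIGU) and 26 did not pass the test. These were 13.3% of the genes, beside 9.74% of all tested genes (4.89% higher and 4.85% lower). The libraries did not overlap for 17 GPI genes, 4 higher and 13 lower in HER2R, beside 27.8% and 29.3% of all tested genes. The median log2 fold change was -0.23 over the 30 genes and -0.02 over all. With the replicate block, 1 GPI gene was called higher and 8 lower, beside 33.7% of all tested genes (16.2% higher and 17.5% lower). At an unadjusted p under 0.05 edgeR without the block gave 0 higher and 8 lower, beside 13.9% and 14.8% of all tested genes.

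In CEAR against MKN45, 1 GPI gene rose (PGAP1), 0 fell and 29 did not pass, or 3.33% beside 6.19% of all tested genes, with 2.57% higher and 3.62% lower. The libraries did not overlap for 7 genes higher and 6 lower in CEAR, beside 25.0% and 25.6% of all tested genes. The median log2 fold change was -0.00, as it was over all genes. The replicate block called 4 GPI genes higher and 1 lower, beside 25.8% of all tested genes (12.0% higher and 13.8% lower). An unadjusted p under 0.05 in edgeR without the block was reached by 3 higher and 1 lower, beside 10.8% and 12.5% of all. With scaling by library size alone, the called genes over the whole table split into 495 higher and 459 lower, against 385 higher and 541 lower with TMM factors.

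In HER2R against CEAR, 0 GPI genes were higher, 5 were lower (PIGQ, DPM1, PIGN, PGAP1 and PGAP2) and 25 did not pass, or 16.7% beside 14.1% of all tested genes, with 7.32% higher and 6.75% lower. The libraries did not overlap for 2 genes higher and 14 lower in HER2R, beside 31.0% and 30.3% of all tested genes. Library size alone gave 931 higher and 1296 lower genes over the whole table, against 1095 and 1010. With the block 0 GPI genes were higher and 13 lower, beside 38.2% of all tested genes (19.7% higher and 18.6% lower). Without it, edgeR gave 0 higher and 10 lower at an unadjusted p under 0.05, beside 16.3% and 15.6% of all. These counts describe the GPI genes, and the genes were not tested as a group. The comparisons share libraries, so a gene called in more than 1 is no independent repeat.

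**Figure D1:**
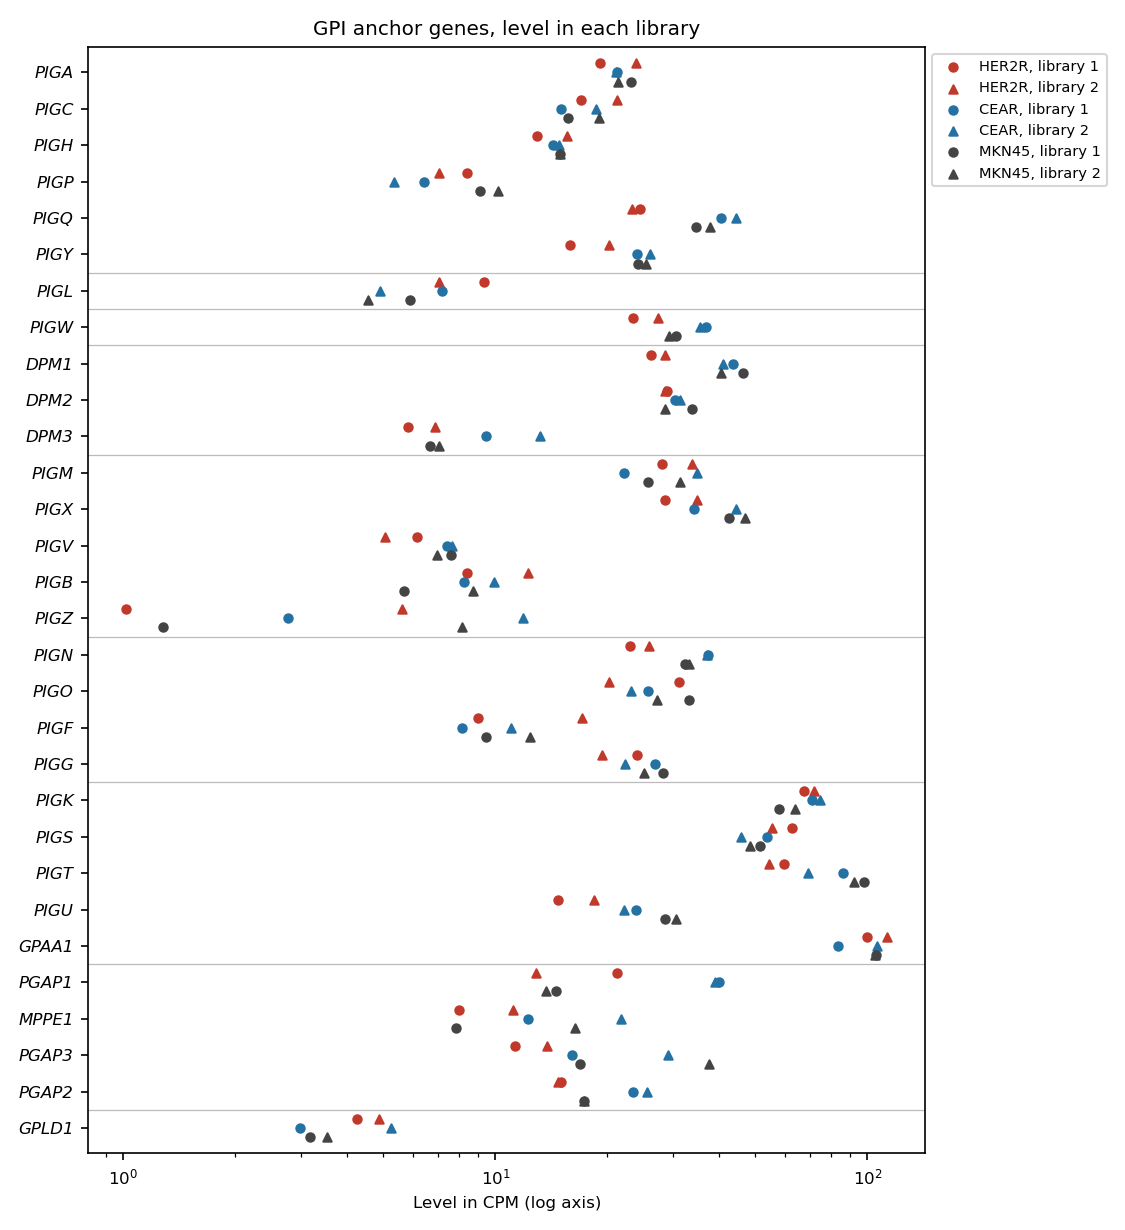
Level of each of the 30 GPI genes in each of the 6 libraries, in CPM on a log axis, with circles for library 1 and triangles for library 2 of HER2R (red), CEAR (blue) and MKN45 (grey), and grey lines between roles. PGAP1 is higher in both CEAR libraries than in the other 4, and PIGZ differs several-fold between the libraries of every line.

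**Figure D2:**
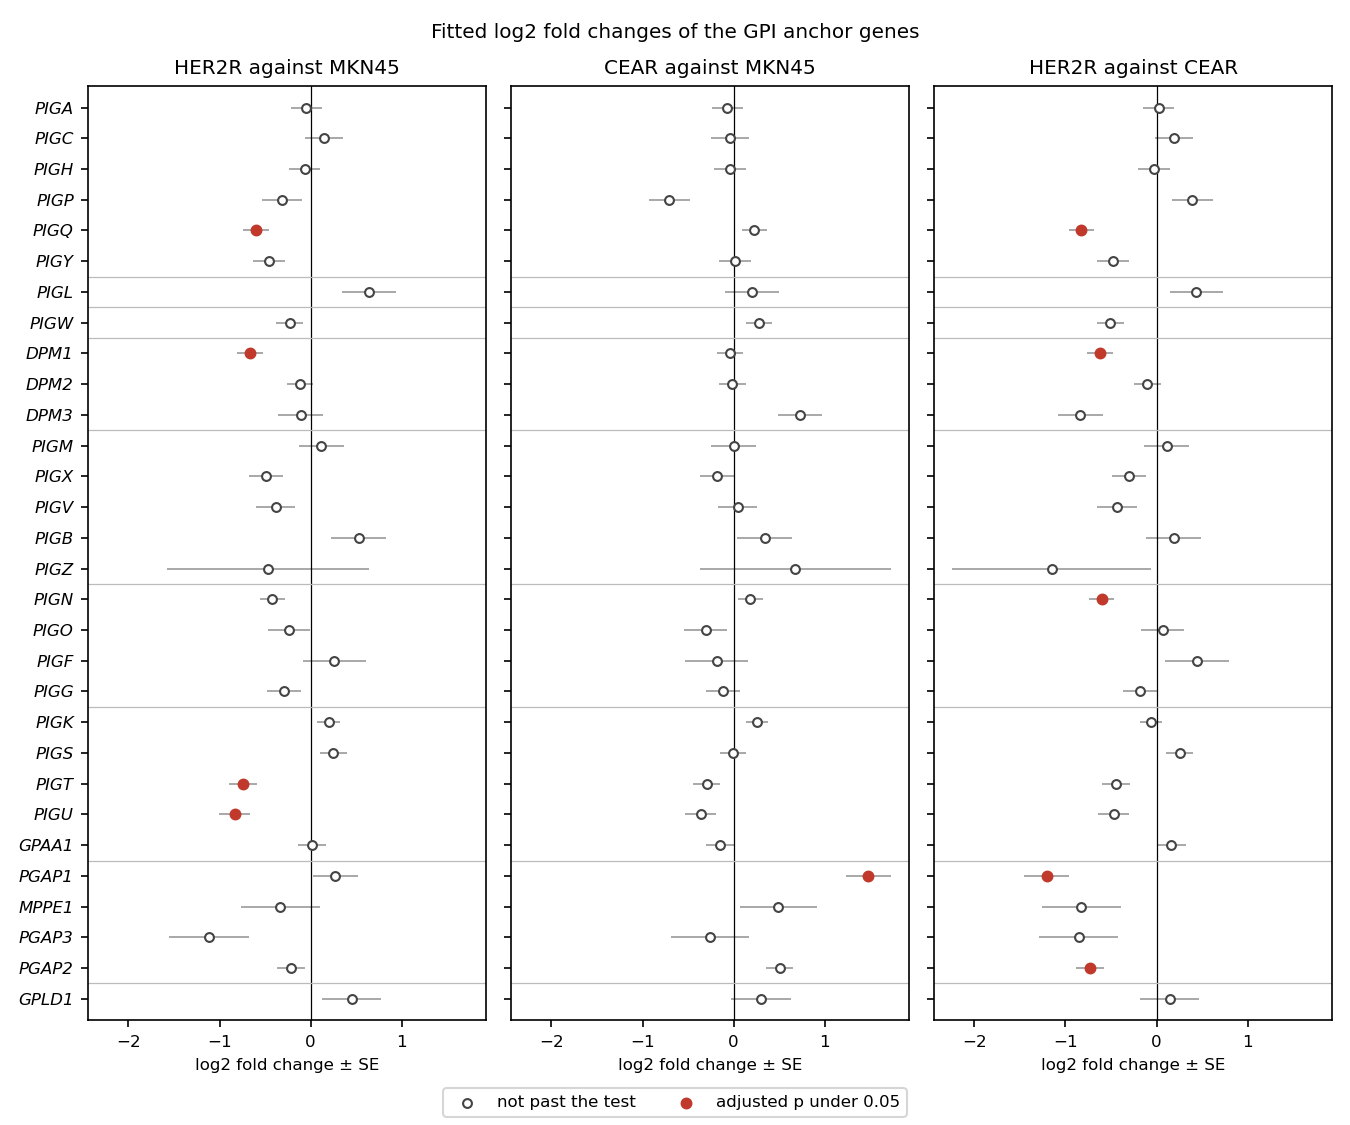
Fitted log2 fold change of each GPI gene with its SE in the 3 comparisons, with filled points for an edgeR adjusted p under 0.05 without the replicate block. The 4, 1 and 5 filled points are the genes named in the text, and PIGZ has the widest error.

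Mean levels ran from 3.32 CPM for PIGZ to 106 CPM for GPAA1 in HER2R, from 4.11 CPM for GPLD1 to 95.02 CPM for GPAA1 in CEAR, and from 3.35 CPM for GPLD1 to 105 CPM for GPAA1 in MKN45. Levels of different genes were compared only per kilobase of principal transcript in GENCODE 29. On that scale PIGX (57.4 CPM per kilobase), GPAA1 (50.6), PIGT (42.4) and DPM1 (40.4) were the highest in MKN45. GPLD1 (0.960 CPM per kilobase), PGAP1 (1.27), PIGP (1.37) and PIGZ (1.74) were the lowest. This order depends on the lengths used. The principal transcript of PIGX is 777 bases, while all its annotated exons cover 4446 bases, and that of PIGP is 6998 bases. Which transcripts these cells make was not tested. PIGY is left out of that order because its annotated exons, 217 bases, lie wholly within exons of PYURF on the same strand, so reads could not be split with certainty. Exon bases are also shared on the same strand between PIGQ and NHLRC4 (173 bases), PIGU and NCOA6 (96 bases), and PIGX and NRROS (222 bases). On the opposite strand MPPE1 overlaps GNAL (2261 bases), PIGF overlaps RHOQ (655 bases), and PGAP3 overlaps ERBB2 (194 bases). The library kit keeps strand, but whether counting used it is not given in the sources here.

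The stretches upstream of a RefSeq start (GRCh38.p14) of the 5 genes called against MKN45 without the block are shown so that the genes that fell in HER2R can be set beside PGAP1, which rose in CEAR. Each is written 5′ to 3′ on the gene's strand, within the 250 bases before the start, as the longest part free of GENCODE 29 exons. The stretches of PGAP1, PIGQ and PIGU lie within the GENCODE 29 span of their own gene, which begins farther upstream. Which start these cells use was not tested. Capitals mark matches on either strand to CCGGAAGT (ETS factors), the NRF1 motif, CCAAT (NF-Y), GGGCGG (the GC box), TGACGTCA (CREB), TGACGTGG (the unfolded protein response) or TATAAA (the TATA box), and matches may overlap.
PGAP1, chr2:196926746-196926957, minus strand: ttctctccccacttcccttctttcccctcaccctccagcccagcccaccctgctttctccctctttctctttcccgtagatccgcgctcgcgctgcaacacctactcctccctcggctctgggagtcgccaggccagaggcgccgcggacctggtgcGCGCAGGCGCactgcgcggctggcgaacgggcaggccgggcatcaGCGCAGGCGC
PIGQ, chr16:569796-569946, plus strand: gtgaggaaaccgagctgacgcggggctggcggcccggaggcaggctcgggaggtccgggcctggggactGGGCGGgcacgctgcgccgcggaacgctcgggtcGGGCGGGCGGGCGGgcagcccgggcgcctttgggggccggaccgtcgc
PIGU, chr20:34677093-34677342, minus strand: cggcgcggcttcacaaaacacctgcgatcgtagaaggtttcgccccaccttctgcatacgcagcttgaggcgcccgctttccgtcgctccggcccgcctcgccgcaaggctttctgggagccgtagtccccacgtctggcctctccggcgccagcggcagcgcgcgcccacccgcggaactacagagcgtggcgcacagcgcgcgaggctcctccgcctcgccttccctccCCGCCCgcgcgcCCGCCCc
PIGT, chr20:45415891-45416066, plus strand: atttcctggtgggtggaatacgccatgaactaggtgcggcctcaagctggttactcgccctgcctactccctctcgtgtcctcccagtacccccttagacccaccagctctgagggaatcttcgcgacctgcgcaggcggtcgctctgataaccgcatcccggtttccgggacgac
DPM1, chr20:50958565-50958814, minus strand: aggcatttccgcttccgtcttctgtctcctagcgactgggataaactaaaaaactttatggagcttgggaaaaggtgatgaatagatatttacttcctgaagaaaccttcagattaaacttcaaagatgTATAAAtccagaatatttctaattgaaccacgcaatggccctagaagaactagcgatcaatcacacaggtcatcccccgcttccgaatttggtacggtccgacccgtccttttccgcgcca
PGAP1 held 2 matches to the NRF1 motif, 93 and 48 bases before the start. Within the same stretch, 250 to 39 bases before the start, 3.41% of all 35116 promoters held that motif. PIGQ held 4 GC boxes between 172 and 22 bases before the start, where 35.1% of promoters held at least 1. PIGU held 2 GC boxes in the full 250 bases, where 42.6% of promoters held at least 1. DPM1 held 1 TATA match, 121 bases before this start, a motif in 10.7% of promoters over the full 250 bases. The other promoters were searched with any exons they hold. The stretch of PIGT held none of the 7 motifs. The NRF1 motif also occurred in stretches of PIGV, PIGP and PIGA, and the GC box in PIGV, PIGK, PIGM, PIGX, PIGN and PIGP. None of those genes was called against MKN45 without the block. A match is a string of letters in this window and says nothing of whether a factor binds.

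The first enzyme complex, which transfers N-acetylglucosamine to phosphatidylinositol, has 6 genes here. PIGA, its catalytic subunit and the X-linked gene mutated in paroxysmal nocturnal haemoglobinuria, had 19.1 and 23.9 CPM in HER2R, 21.2 and 21.1 CPM in CEAR, and 23.1 and 21.4 CPM in MKN45. The HER2R libraries enclosed those of MKN45, and the CEAR libraries lay just below them. Its log2 fold change was -0.05 in HER2R against MKN45 (SE 0.171, edgeR adjusted p = 0.883) and -0.07 in CEAR against MKN45 (SE 0.170, edgeR adjusted p = 0.856).

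PIGQ, a subunit that helps to hold the complex together, had 24.5 and 23.3 CPM in HER2R, 40.4 and 44.4 CPM in CEAR, and 34.7 and 37.8 CPM in MKN45. HER2R was the lowest line and CEAR the highest, and no lines overlapped. PIGQ fell in HER2R against MKN45 (-0.60, SE 0.139, edgeR adjusted p = 0.0467) and was lower in HER2R than in CEAR (-0.82, SE 0.140, edgeR adjusted p = 0.0185). CEAR differed from MKN45 by 0.23 on the log2 scale, without a call (SE 0.138, edgeR adjusted p = 0.388). In bulk RNA, fewer expressing cells and less RNA per cell cannot be told apart, here and for every gene below.

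The other subunits had no call without the replicate block. PIGP, a small subunit, had 8.41 and 7.07 CPM in HER2R, 6.43 and 5.35 CPM in CEAR, and 9.07 and 10.1 CPM in MKN45. Its CEAR libraries were the lowest of all 6, without a call against MKN45 (-0.71, SE 0.222, edgeR adjusted p = 0.119), and PIGP was called lower with the block (-0.71, edgeR adjusted p = 0.0304). PIGY, a regulator of the complex, had 15.9 and 20.1 CPM in HER2R, 24.04 and 26.1 CPM in CEAR, and 24.1 and 25.4 CPM in MKN45, with HER2R below both other lines. The block alone called PIGY lower in HER2R against MKN45 (-0.47, edgeR adjusted p = 0.0270) and against CEAR (-0.48, edgeR adjusted p = 0.0221). PIGC and PIGH, further subunits, had log2 fold changes between -0.07 and 0.19 in the 3 comparisons, with no call with or without the block.

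PIGL and PIGW act next, and neither had a call without the replicate block. PIGL, the deacetylase, had 9.32 and 7.04 CPM in HER2R, 7.20 and 4.90 CPM in CEAR, and 5.90 and 4.55 CPM in MKN45. HER2R lay above MKN45 (0.64, SE 0.295, edgeR adjusted p = 0.210), and PIGL was called higher there with the block (0.65, edgeR adjusted p = 0.03002). PIGW, which acylates the inositol, had 23.5 and 27.4 CPM in HER2R, 36.9 and 35.4 CPM in CEAR, and 30.5 and 29.2 CPM in MKN45, so that no lines overlapped. Its log2 fold change in HER2R against CEAR was -0.51 (edgeR adjusted p = 0.0662), and PIGW was called lower there with the block (edgeR adjusted p = 0.0142).

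Dolichol-phosphate mannose, the mannose donor of the anchor and of other glycans, is made by DPM1 with DPM2 and DPM3. DPM1, the catalytic subunit, had 26.2 and 28.5 CPM in HER2R, 43.5 and 40.9 CPM in CEAR, and 46.3 and 40.5 CPM in MKN45. HER2R lay below both other lines, which overlapped with each other. DPM1 fell in HER2R against MKN45 (-0.67, SE 0.143, edgeR adjusted p = 0.0374) and was lower in HER2R than in CEAR (-0.62, SE 0.143, edgeR adjusted p = 0.0364). DPM2, which stabilises the synthase, stayed between 28.6 and 33.7 CPM over the 6 libraries. DPM3, which tethers DPM1 to the membrane, had 5.81 and 6.89 CPM in HER2R, 9.44 and 13.2 CPM in CEAR, and 6.66 and 7.05 CPM in MKN45. Both CEAR libraries of DPM3 were above all others, without a call against MKN45 (0.72, SE 0.241, edgeR adjusted p = 0.136) or in HER2R against CEAR (-0.84, SE 0.245, edgeR adjusted p = 0.0689). With the block DPM3 was called higher in CEAR against MKN45 (edgeR adjusted p = 0.0241) and lower in HER2R against CEAR (edgeR adjusted p = 0.0100).

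None of the 5 mannosyltransferase genes had a call without the replicate block. PIGM, the first mannosyltransferase, had 27.97 and 33.8 CPM in HER2R, 22.2 and 34.8 CPM in CEAR, and 25.7 and 31.3 CPM in MKN45, and all lines overlapped. Its partner PIGX had 28.5 and 34.9 CPM in HER2R, 34.1 and 44.3 CPM in CEAR, and 42.4 and 46.8 CPM in MKN45, with HER2R below MKN45 (-0.49, SE 0.185, edgeR adjusted p = 0.143), and was called lower there with the block (edgeR adjusted p = 0.0116). PIGV and PIGB, which add the second and the third mannose, stayed between 5.05 and 12.3 CPM in all libraries. PIGZ, which adds a further mannose to some anchors, had 1.02 and 5.61 CPM in HER2R, 2.77 and 11.9 CPM in CEAR, and 1.28 and 8.12 CPM in MKN45. Library 2 of each line was far above library 1, and all lines overlapped. PIGZ had no call in CEAR against MKN45 (0.68, SE 1.05, edgeR adjusted p = 0.760) or in HER2R against CEAR (-1.15, SE 1.09, edgeR adjusted p = 0.514). The block called it higher in CEAR against MKN45 (0.74, edgeR adjusted p = 0.0444) and lower in HER2R against CEAR (-1.20, edgeR adjusted p = 0.00615).

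Ethanolamine phosphates are added by PIGN, PIGO and PIGG, of which PIGO and PIGG need PIGF as partner. PIGN, which modifies the first mannose, had 23.1 and 25.9 CPM in HER2R, 37.3 and 37.2 CPM in CEAR, and 32.4 and 33.1 CPM in MKN45. No lines overlapped, and HER2R was the lowest and CEAR the highest. PIGN was lower in HER2R than in CEAR (-0.60, SE 0.138, edgeR adjusted p = 0.0366), without a call against MKN45 in HER2R (-0.42, SE 0.138, edgeR adjusted p = 0.106), where the block called it lower (edgeR adjusted p = 0.0243). PIGO, PIGG and PIGF had log2 fold changes of -0.31 to 0.45 in the 3 comparisons, with no call with or without the block.

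Of the 5 subunits of the transamidase, PIGT and PIGU fell in HER2R against MKN45, and the other three did not pass the test with or without the replicate block. PIGT, which is disulfide-linked to the catalytic subunit, had 59.6 and 54.4 CPM in HER2R, 86.01 and 69.1 CPM in CEAR, and 98.2 and 92.3 CPM in MKN45. No lines overlapped, with HER2R lowest and MKN45 highest, and PIGT fell in HER2R against MKN45 (-0.74, SE 0.150, edgeR adjusted p = 0.0323). PIGU, a membrane subunit, had 14.8 and 18.5 CPM in HER2R, 23.8 and 22.2 CPM in CEAR, and 28.6 and 30.6 CPM in MKN45. It showed the same order of lines and fell in HER2R against MKN45 (-0.83, SE 0.171, edgeR adjusted p = 0.0332). For CEAR against MKN45, PIGT stood at -0.30 (SE 0.149, edgeR adjusted p = 0.299) and PIGU at -0.36 (SE 0.169, edgeR adjusted p = 0.263). HER2R against CEAR gave no call for PIGT (-0.44, edgeR adjusted p = 0.0972) or PIGU (-0.47, edgeR adjusted p = 0.115). The block called both lower there (edgeR adjusted p = 0.0123 for PIGT and 0.0307 for PIGU).

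PIGK, the catalytic subunit of the transamidase, had 67.8 and 71.9 CPM in HER2R, 71.1 and 74.6 CPM in CEAR, and 57.996 and 63.9 CPM in MKN45. Both derivatives lay above MKN45 without a call, at 0.20 in HER2R (edgeR adjusted p = 0.350) and at 0.26 in CEAR (edgeR adjusted p = 0.279). PIGS, another subunit, had 62.9 and 55.4 CPM in HER2R, 53.7 and 45.6 CPM in CEAR, and 51.3 and 48.3 CPM in MKN45. GPAA1, which is needed to attach the anchor, had 99.9 and 113 CPM in HER2R, 83.6 and 106 CPM in CEAR, and 105 and 105 CPM in MKN45. All lines of GPAA1 overlapped, and its log2 fold change against MKN45 was 0.02 in HER2R (SE 0.155) and -0.15 in CEAR (SE 0.155).

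The 1 gene called in CEAR against MKN45 without the block acts in remodelling. PGAP1, which removes the acyl chain from the inositol soon after the anchor is attached to a protein, had 21.3 and 12.9 CPM in HER2R, 39.97 and 38.9 CPM in CEAR, and 14.6 and 13.7 CPM in MKN45. Both CEAR libraries were above all others, and HER2R overlapped MKN45. PGAP1 rose 2.79-fold in CEAR against MKN45 (log2 fold change 1.48, SE 0.246, edgeR adjusted p = 0.0233) and was lower in HER2R than in CEAR (-1.21, SE 0.245, edgeR adjusted p = 0.0283). Between HER2R and MKN45 it differed by 0.27 (SE 0.246, edgeR adjusted p = 0.517).

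PGAP2, needed for reacylation of the anchor lipid in the Golgi, had 15.01 and 14.7 CPM in HER2R, 23.5 and 25.6 CPM in CEAR, and 17.3 and 17.3 CPM in MKN45. No lines overlapped, with HER2R lowest and CEAR highest. PGAP2 was lower in HER2R than in CEAR (-0.73, SE 0.153, edgeR adjusted p = 0.0302), and CEAR against MKN45 gave no call (0.51, SE 0.152, edgeR adjusted p = 0.106) unless the block was used (higher, edgeR adjusted p = 0.0241). PGAP3, the Golgi enzyme that removes an unsaturated fatty acid from the anchor, had 11.3 and 13.8 CPM in HER2R, 16.04 and 29.2 CPM in CEAR, and 16.9 and 37.5 CPM in MKN45. Its HER2R libraries were the lowest, and library 2 was 1.82 times library 1 in CEAR and 2.22 times in MKN45. HER2R gave no call against MKN45 (-1.12, SE 0.437, edgeR adjusted p = 0.154) or CEAR (-0.85, edgeR adjusted p = 0.233). With the block PGAP3 was called lower in HER2R against MKN45 (-1.02, edgeR adjusted p = 0.00581) and against CEAR (-0.79, edgeR adjusted p = 0.0154). MPPE1, which removes an ethanolamine phosphate side chain, had 7.999 and 11.2 CPM in HER2R, 12.2 and 21.7 CPM in CEAR, and 7.85 and 16.4 CPM in MKN45. MPPE1 had no call in HER2R against CEAR (-0.82, edgeR adjusted p = 0.242) and was called lower with the block (-0.79, edgeR adjusted p = 0.0102). GPLD1, a secreted phospholipase that cleaves GPI anchors, stayed between 2.99 and 5.24 CPM.

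The calls without the replicate block rested on the full set of libraries. Without any 1 of the 6, the falls in HER2R against MKN45 lost their call for PIGQ (edgeR adjusted p 0.0766 to 0.207), DPM1 (0.0637 to 0.200) and PIGU (0.0528 to 0.177). Their log2 fold changes then ran from -0.66 to -0.54 for PIGQ, -0.77 to -0.56 for DPM1 and -1.01 to -0.68 for PIGU. The fall of PIGT held without either CEAR library and ended with any 1 HER2R or MKN45 library left out (edgeR adjusted p 0.0920 to 0.180, log2 fold change -0.81 to -0.68). The rise of PGAP1 in CEAR held without either HER2R library. It ended without CEAR library 1 (edgeR adjusted p = 0.0852), CEAR library 2 (0.0813), MKN45 library 1 (0.0838) or MKN45 library 2 (0.101), at 1.43 to 1.53.

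In HER2R against CEAR, the calls of PIGQ, DPM1 and PGAP2 held without either MKN45 library and ended with any 1 HER2R or CEAR library left out. The edgeR adjusted p was then 0.0606 to 0.117 for PIGQ, 0.120 to 0.178 for DPM1 and 0.0995 to 0.153 for PGAP2. PIGN ended without any 1 of the 6 (edgeR adjusted p 0.0560 to 0.179). PGAP1 in HER2R against CEAR ended without HER2R library 2 (-0.89, edgeR adjusted p = 0.105), CEAR library 1 (0.0940) or CEAR library 2 (0.0924). Leaving out a library leaves a line with 1, which is then assumed to vary like the others.

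Some GPI genes moved with the library number, 1 or 2, in all 3 lines. The log2 ratio of library 2 over library 1 for PIGZ was 2.46 in HER2R, 2.10 in CEAR and 2.67 in MKN45. For PGAP3 it was 0.29, 0.86 and 1.15 in the same order of lines, and for MPPE1 0.48, 0.83 and 1.06. PIGL ran the other way, at -0.41, -0.56 and -0.38. In all, 13 genes were higher in library 2 of every line, 6 were lower and 11 were mixed, and 3 (PIGZ, MPPE1 and PGAP3) differed by over 2-fold in any line. Over all tested genes, 26.9% were higher and 25.3% lower in library 2 of every line. CEACAM5 moved with the number too, with 1036 and 2289 CPM in HER2R, 2.34 and 15.9 CPM in CEAR, and 1007 and 2441 CPM in MKN45. What the number stands for is not stated.

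**Figure D3:**
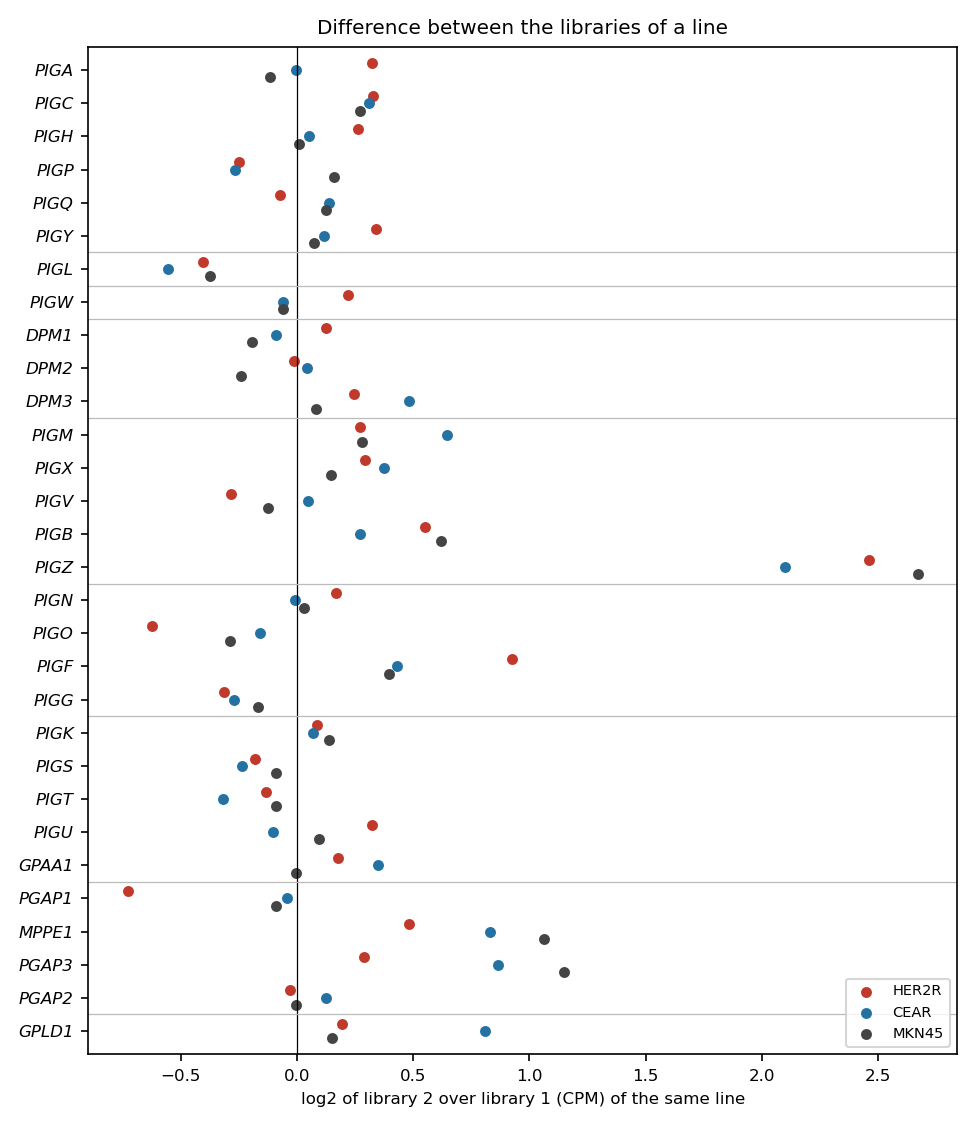
Log2 ratio of library 2 over library 1 (CPM) for each GPI gene in HER2R (red), CEAR (blue) and MKN45 (grey). PIGZ lies at 2.10 to 2.67 in all 3 lines.

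PIGU, PIGT and DPM1, which fell in HER2R, all lie on chromosome 20, at 34560542 to 34698790, 45416067 to 45456934 and 50934867 to 50958555 on GRCh38 (GENCODE 29). The 127 tested genes between PIGU and DPM1 had a median log2 fold change of -0.42 in HER2R against MKN45, and 74.8% of them were below 0. For CEAR against MKN45 these values were 0.02 and 47.2%. Over all of chromosome 20 the medians were -0.21 in HER2R and 0.04 in CEAR. PIGT stood at -0.74 in HER2R against MKN45, beside a median of -0.53 over the 50 tested genes within 3 Mb. PIGU stood at -0.83 beside -0.25 over 66 genes, and DPM1 at -0.67 beside -0.17 over 27 genes.

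PIGQ lies on chromosome 16 (566995 to 584136), where the 109 tested genes within 3 Mb had medians of -0.19 in HER2R against MKN45, 0.55 in CEAR against MKN45 and -0.75 in HER2R against CEAR. PIGQ itself stood at -0.60, 0.23 and -0.82. Of these neighbours, 102 were below 0 in HER2R against CEAR. PGAP2 lies on chromosome 11 (3797724 to 3826371), and its 59 neighbours had medians of -0.28, 0.34 and -0.72 in the same order, beside -0.22, 0.51 and -0.73 for PGAP2. PIGN lies on chromosome 18 (61905255 to 62187118), with 13 neighbours at -0.22 in HER2R against CEAR, beside -0.60 for PIGN.

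PGAP1 and PGAP3 stood farther from the genes around them, and were not alone in this. In HER2R against CEAR, DPM3 stood at -0.84 beside a median of 0.29 over the 102 tested genes within 3 Mb. PIGZ stood there at -1.15 beside -0.02 over 37 genes. Neither had a call without the block. The 17 tested genes within 3 Mb of PGAP1, on chromosome 2 (196833004 to 196927796), had a median of 0.04 in CEAR against MKN45, where PGAP1 stood at 1.48. The 86 tested genes within 3 Mb of PGAP3, on chromosome 17 (39671122 to 39696797) beside ERBB2, had a median of 0.24 in HER2R against MKN45, where PGAP3 stood at -1.12. Across the 30 GPI genes, which share the libraries of each fit and are not replicates, a gene's log2 fold change and its neighbours' median had a Spearman correlation of 0.41 in HER2R against MKN45 (Pearson 0.47), 0.29 in CEAR against MKN45 (0.33) and 0.45 in HER2R against CEAR (0.45). Windows of 1 Mb gave Spearman 0.49, 0.26 and 0.42, over 29 genes, and windows of 5 Mb gave 0.57, 0.25 and 0.40. Gene copy number was not measured here, and the part of position in these changes was not tested. The windows were chosen after the values were seen.

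**Figure D4:**
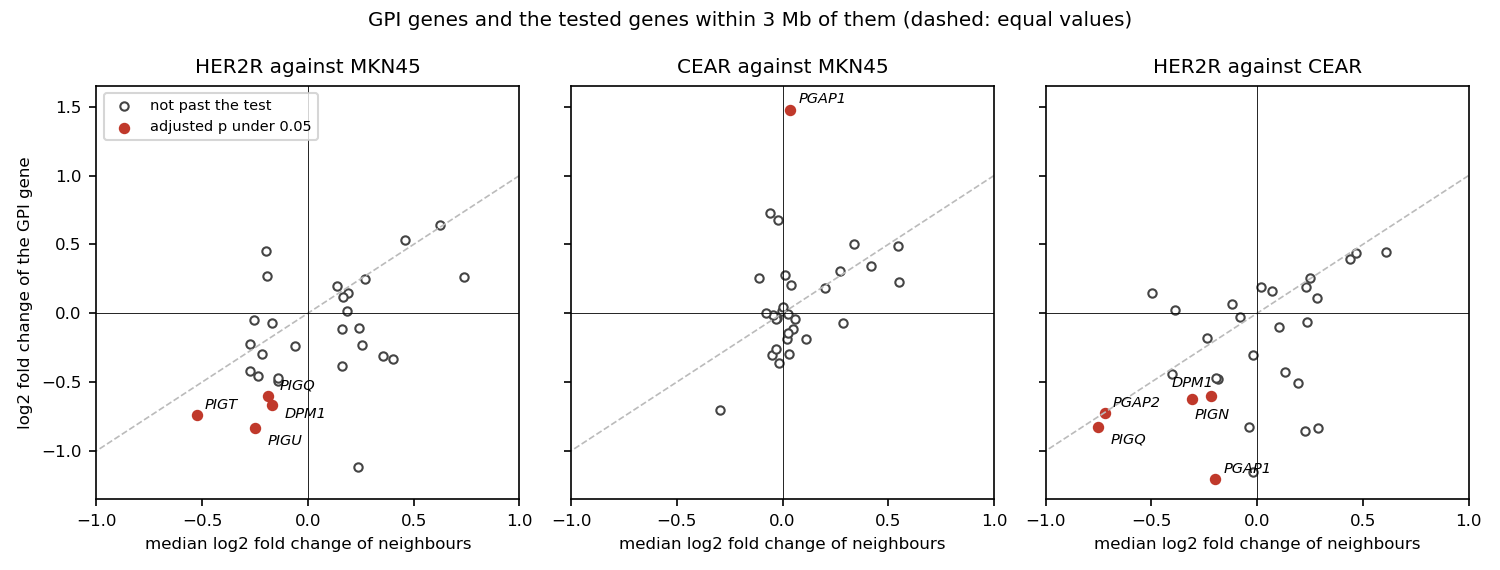
Log2 fold change of each GPI gene (vertical) against the median log2 fold change of the other tested genes within 3 Mb (horizontal) in the 3 comparisons, with filled points for an edgeR adjusted p under 0.05 without the replicate block and a dashed line of equal values. PIGQ and PGAP2 lie near the line in HER2R against CEAR, and PGAP1 lies far above it in CEAR against MKN45.

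A list of 31 partner genes covers precursor flipping, side chains, shedding, export and the supply of building blocks, and all 31 were tested. In HER2R against MKN45, 0 rose, 3 fell and 28 did not pass, or 9.68% of the list beside 9.74% of all tested genes. The median log2 fold change of the list was -0.25. The 3 that fell make phosphatidylinositol or ethanolamine precursors. PCYT2, which makes CDP-ethanolamine, had 27.3 and 22.6 CPM in HER2R and 60.7 and 47.3 CPM in MKN45 (-1.11, SE 0.207, edgeR adjusted p = 0.0258). CDIPT, the phosphatidylinositol synthase, had 38.6 and 41.3 CPM in HER2R and 65.3 and 65.7 CPM in MKN45 (-0.71, SE 0.153, edgeR adjusted p = 0.0378). ETNK1, an ethanolamine kinase, had 88.8 and 90.6 CPM in HER2R and 131 and 150.1 CPM in MKN45 (-0.65, SE 0.126, edgeR adjusted p = 0.0288). HER2R lay below MKN45 without overlap for all 3, as it did for 29.3% of all tested genes. ETNK1 lost its call without any 1 of the 6 libraries (edgeR adjusted p 0.0518 to 0.164), and PCYT2 and CDIPT lost theirs with any 1 HER2R or MKN45 library left out (0.0516 to 0.152 and 0.107 to 0.191).

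Of the partner genes in CEAR against MKN45, 1 rose, 1 fell and 29 did not pass, or 6.45% beside 6.19% of all tested genes. The median of the list was -0.11. FAR1, which makes fatty alcohols for the ether lipids found in GPI anchors, had 122 and 127 CPM in CEAR and 81.9 and 66.97 CPM in MKN45 and rose (0.74, SE 0.141, edgeR adjusted p = 0.0335). ETNK1 had 85.9 and 90.6 CPM in CEAR and fell against MKN45 as well (-0.67, SE 0.126, edgeR adjusted p = 0.0327). Both calls ended without any 1 of the 6 libraries (edgeR adjusted p 0.0566 to 0.142 for FAR1 and 0.0683 to 0.161 for ETNK1).

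In HER2R against CEAR, 2 partner genes were higher, 3 lower and 26 did not pass, or 16.1% beside 14.1% of all tested genes. The median of the list was -0.05. FAR1 (-1.03, edgeR adjusted p = 0.0116), PCYT2 (-0.82, edgeR adjusted p = 0.0467) and TMEM8A, a phospholipase that sheds a GPI-anchored protein (-0.66, edgeR adjusted p = 0.0251), were lower. GDPD5, a phosphodiesterase that can cleave GPI anchors (0.82, edgeR adjusted p = 0.0375), and UAP1, which makes UDP-N-acetylglucosamine (0.66, edgeR adjusted p = 0.0388), were higher. GDPD5 lost its call without any 1 of the 6 libraries, FAR1 without either HER2R library or CEAR library 2, and the other three with any 1 HER2R or CEAR library left out (edgeR adjusted p up to 0.222 for PCYT2). The 8 genes for export from the endoplasmic reticulum (4 TMED and 4 SEC24 genes) had 0 edgeR calls in each of the 3 comparisons without the block. The block called SEC24A, TMED5 and TMED9 lower in HER2R against MKN45. It called SEC24A, SEC24C, TMED2 and TMED9 lower and SEC24B higher in CEAR against MKN45, and TMED5 lower and SEC24D higher in HER2R against CEAR. Of the partner genes named above, the block also called GDPD5 (0.58, edgeR adjusted p = 0.0251) and UAP1 (0.60, edgeR adjusted p = 0.0101) higher in HER2R against MKN45. TMEM8A was then higher in CEAR against MKN45 (0.36, edgeR adjusted p = 0.0400) and CDIPT lower in HER2R against CEAR (-0.53, edgeR adjusted p = 0.00869). With the replicate block the partner genes gave 2 higher and 12 lower in HER2R against MKN45, 4 and 6 in CEAR against MKN45, and 5 and 9 in HER2R against CEAR. Of all tested genes, the block called 16.2% higher and 17.5% lower, 12.0% and 13.8%, and 19.7% and 18.6%, in the same order.

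Of 108 listed GPI-anchored surface proteins, the cargo of the pathway, 51 passed the filter on low counts. Of the 57 others, 29 had 0 counts in all libraries and none exceeded 15 counts in any. In HER2R against MKN45, 6 rose, 4 fell and 41 did not pass, or 19.6% beside 9.74% of all tested genes. In CEAR against MKN45, 2 rose, 7 fell and 42 did not pass, or 17.6% beside 6.19%. In HER2R against CEAR 8 were higher, 2 lower and 41 did not pass, or 19.6% beside 14.1%. A low gene can pass the filter through the line where it is high, in this list and among all genes. The list was not tested as a group, and these shares are not read as a result about it. CEACAM5 fell in CEAR against MKN45 (log2 fold change -7.56, SE 1.08, edgeR adjusted p = 0.0156), and stood at -0.05 in HER2R (SE 0.804, edgeR adjusted p = 0.974). CEACAM6, a close relative with which reads may be shared, had 8.23 and 37.5 CPM in HER2R, 8.70 and 58.2 CPM in CEAR, and 801 and 1325 CPM in MKN45. It fell in HER2R (-5.54, edgeR adjusted p = 0.0314) and in CEAR (-4.99, edgeR adjusted p = 0.0487). The sizes of these falls moved with the library left out. CEACAM5 in CEAR against MKN45 was -6.76 with CEAR library 1 left out, -9.52 with CEAR library 2 left out and -6.79 with MKN45 library 2 left out. Its difference in HER2R against CEAR, 7.51 with all libraries, was 6.83 when HER2R library 2 was left out, 6.70 when CEAR library 1 was, and 9.47 when CEAR library 2 was. CEACAM6 against MKN45 was -4.82 and -7.01 in HER2R without HER2R library 1 or 2, and -4.19 and -6.93 in CEAR without CEAR library 1 or 2.

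CD55, which protects cells from complement, had 473 and 763 CPM in HER2R, 117 and 231 CPM in CEAR, and 111 and 161 CPM in MKN45. It rose in HER2R against MKN45 (2.18, SE 0.396, edgeR adjusted p = 0.0248) and was higher in HER2R than in CEAR (1.83, SE 0.391, edgeR adjusted p = 0.0311). BST2, which tethers budding virions, had 42.4 and 48.996 CPM in HER2R, 37.9 and 41.4 CPM in CEAR, and 5.70 and 2.32 CPM in MKN45. It rose in both derivatives, by 3.49 in HER2R (edgeR adjusted p = 0.00588) and by 3.28 in CEAR (edgeR adjusted p = 0.00883). Without MKN45 library 1 these were 4.30 in HER2R and 4.10 in CEAR. LSAMP, a neural adhesion protein, rose in HER2R (1.74, edgeR adjusted p = 0.00953) and in CEAR (2.77, edgeR adjusted p = 0.00309). GPC3, a glypican, had 2.88 and 2.37 CPM in HER2R, 2.29 and 4.20 CPM in CEAR, and 24.7 and 21.6 CPM in MKN45. It fell in HER2R (-3.14, edgeR adjusted p = 0.00491) and in CEAR (-2.83, edgeR adjusted p = 0.00762).

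CD109, a co-receptor that binds TGF-beta, had 5.48 and 5.13 CPM in HER2R, 0.241 and 0.337 CPM in CEAR, and 1.86 and 1.68 CPM in MKN45. It rose in HER2R (1.58, edgeR adjusted p = 0.0208) and fell in CEAR (-2.60, edgeR adjusted p = 0.0180). MSLN, mesothelin, had 42.9 and 41.9 CPM in HER2R, 11.2 and 12.5 CPM in CEAR, and 31.5 and 55.2 CPM in MKN45, and fell in CEAR (-1.87, SE 0.273, edgeR adjusted p = 0.0163). GPC1, another glypican, had 53.7 and 63.6 CPM in HER2R and 165 and 136 CPM in MKN45, and fell in HER2R (-1.36, SE 0.157, edgeR adjusted p = 0.00679). NT5E, the ectoenzyme CD73, rose in HER2R against MKN45 (0.90, edgeR adjusted p = 0.0283) and was higher in HER2R than in CEAR (1.503, SE 0.176, edgeR adjusted p = 0.00751). The ephrin EFNA5 was higher in HER2R than in CEAR (1.28, SE 0.189, edgeR adjusted p = 0.0135). TNFRSF10C, a decoy receptor for TRAIL, fell in CEAR (-1.79, SE 0.359, edgeR adjusted p = 0.0394). ALPPL2, an alkaline phosphatase with near-identical relatives, had 0.0255 and 0.0510 CPM in HER2R, 0.0723 and 0.629 CPM in CEAR, and 0.726 and 7.89 CPM in MKN45. HER2R lay below both other lines, and library 2 was far above library 1 in CEAR and in MKN45. ALPPL2 had 3 counts over the HER2R libraries and 388 over the MKN45 libraries, 101-fold lower with a 95% counting interval of 34.3 to 492, which covers counting error only and not the spread between libraries. Its fitted log2 fold change in HER2R against MKN45, which depends on the prior count, was -6.68 with all libraries, -7.58 without MKN45 library 1 and -4.16 without MKN45 library 2.

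The replicate block added calls among these anchored proteins. In HER2R against MKN45 it called EFNA5 higher (0.65, edgeR adjusted p = 0.0105) and TNFRSF10C lower (-1.22, edgeR adjusted p = 0.0183). For CEAR against MKN45 it called NT5E (-0.61, edgeR adjusted p = 0.0200), EFNA5 (-0.63, edgeR adjusted p = 0.0177) and ALPPL2 (edgeR adjusted p = 3.75e-04) lower. ALPPL2 was called lower in HER2R against CEAR too (edgeR adjusted p = 0.0333), but not without the block (edgeR adjusted p = 0.467). That comparison rested on 3 counts over the HER2R libraries and 31 over the CEAR libraries.

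Without the block, the calls of BST2 in HER2R, and of CEACAM5, BST2, LSAMP and GPC3 in CEAR, against MKN45, held without any 1 library. In HER2R, GPC3 lost its call without HER2R library 2 (edgeR adjusted p = 0.0566), GPC1 without HER2R library 1 (0.0661) and LSAMP without either HER2R library (0.0637 and 0.0728). CD109, CD55, NT5E and CEACAM6 in HER2R lost theirs with any 1 HER2R or MKN45 library left out (edgeR adjusted p 0.0622 to 0.155 for CEACAM6), and ALPPL2 without either HER2R library or MKN45 library 2 (up to 0.289). In CEAR, MSLN lost its call without either CEAR library (edgeR adjusted p 0.0700 and 0.0732) and CD109 without any 1 of the 6 (0.0530 to 0.103). TNFRSF10C kept its call only without MKN45 library 1, and CEACAM6 only without CEAR library 2. In HER2R against CEAR, CD109 held without any 1 library, NT5E ended without HER2R library 2 (edgeR adjusted p = 0.0625), CEACAM5 and GPC1 ended without either HER2R library (0.0526 and 0.0703 for CEACAM5), and CD55 ended without either HER2R library or CEAR library 1. EFNA5, MSLN and LSAMP ended there with any 1 HER2R or CEAR library left out (edgeR adjusted p up to 0.142 for LSAMP). With the replicate block, 13 of the 51 tested anchored proteins were higher and 10 lower in HER2R against MKN45. The counts were 8 and 19 in CEAR against MKN45, and 18 and 10 in HER2R against CEAR. The block called 16.2% higher and 17.5% lower, 12.0% and 13.8%, and 19.7% and 18.6% of all tested genes, in the same order.

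**Figure D5:**
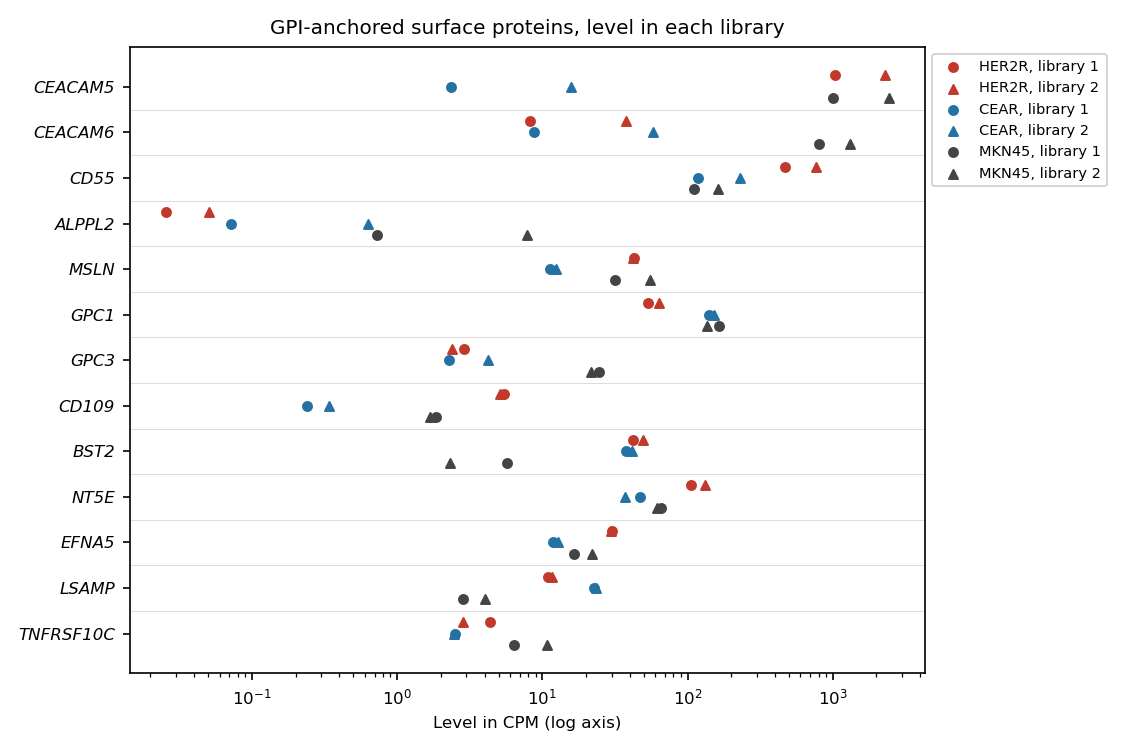
Level of the GPI-anchored surface proteins named by rule in each of the 6 libraries, in CPM on a log axis, with circles for library 1 and triangles for library 2 of HER2R (red), CEAR (blue) and MKN45 (grey). CEACAM5 is lowest in the CEAR libraries, while CEACAM6 and GPC3 are lower in both derivatives than in MKN45.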

How the data were processed

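RNA from cultured cells was depleted of ribosomal RNA and made into stranded libraries, per the labels' protocols. The submitters' processing notes name GRCh38 and limma without a role, and no source used here names the aligner, counter or annotation. The deposited table holds counts per gene symbol, unnormalised.

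The test was edgeR 4.0.16 (R 4.3.3): filterByExpr, TMM factors, and a single quasi-likelihood fit to all 6 libraries with line as the factor (3 residual and 3.51 prior degrees of freedom). Adjusted p-values cover all 14958 tested genes. The SE was derived from log2 fold change and F. The method was tested on simulated data without any effect of the library number, so that test does not cover such an effect. The GPI genes and the other lists were chosen with earlier results of these data known. Named were all 30 GPI genes, CEACAM5, CEACAM6, and up to 5 called genes per direction, comparison and other list, by adjusted p. Older symbols served for 6 list genes (such as TMEM8A for PGAP6, ALPPL2 for ALPG). The RefSeq promoter table matched 25 of the 30 genes. Neighbours came from 13264 tested genes with a GENCODE 29 position.

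Differences of library 2 minus library 1 correlated over tested genes at 0.378 (HER2R and MKN45), 0.545 (CEAR and MKN45) and 0.355 (HER2R and CEAR). The labels do not say that a number pairs libraries, so the fit above has no term for it and ignores any pairing. Because of these correlations, the replicate block is printed beside results it changes. Libraries of a line were distinct (chi-square over degrees of freedom 60.7 to 128). Alternatives were the replicate block, RLE factors, no TMM factors (library size alone), no filter, DESeq2 1.42.0, limma-voom (limma 3.58.1) and each library left out. The legacy quasi-likelihood method was added after seeing the data.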

Additional observations from a re-analysis of the deposited data

Results flagged for a closer look

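The changes of HER2R and CEAR relative to MKN45 differed from each other, by the edgeR test of HER2R against CEAR, in 5 GPI genes. These were 16.7% of the 30 genes, beside 14.1% of all tested genes. The 5 had log2 fold changes of -0.82 for PIGQ, -0.62 for DPM1, -0.60 for PIGN, -1.21 for PGAP1 and -0.73 for PGAP2. All 5 were lower in HER2R, without overlap of the HER2R and CEAR libraries. That held for 14 of the 30 GPI genes and for 30.3% of all tested genes. Among partner genes the differences were -0.82 for PCYT2, -1.03 for FAR1 and -0.66 for TMEM8A, lower in HER2R, and 0.82 for GDPD5 and 0.66 for UAP1, higher in HER2R. Among the named anchored proteins they were 7.51 for CEACAM5, 4.18 for CD109, 1.83 for CD55, 1.503 for NT5E, 1.84 for MSLN and 1.28 for EFNA5, higher in HER2R, and -1.03 for LSAMP and -1.32 for GPC1, lower in HER2R.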

How the results depend on the processing

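Over 90 log2 fold changes (30 GPI genes in 3 comparisons) and 13 alternatives, 1170 values in all, 0 calls reversed, and 59 values of genes without a call in either setting changed sign. With the replicate block, the genes called over the whole table were 5040 in HER2R against MKN45, 3861 in CEAR against MKN45 and 5717 in HER2R against CEAR, against 1457, 926 and 2105 without it. DESeq2 called 2820, 2098 and 3432. GPI genes called by the replicate block were 1 higher and 8 lower in HER2R against MKN45, 4 higher and 1 lower in CEAR against MKN45, and 13 lower in HER2R against CEAR. In CEAR against MKN45 DESeq2 called 2 of the 30 higher (PGAP1 and PGAP2, the second at an adjusted p of 0.0289) and 1 lower (PIGP, 0.0497). Over all 14958 tested genes it called 939 higher and 1159 lower there. In HER2R against CEAR DESeq2 called 7 of the 30 lower, adding DPM3 (adjusted p 0.0211) and PIGW (0.0234). Beside these, it called 1649 of the 14958 genes lower. In HER2R against MKN45 2 were lower with no filter, where PIGQ and DPM1 had edgeR adjusted p of 0.0586 and 0.0520. PIGQ had an adjusted p of 0.0501 in limma-voom. The cause of these differences was not tested. RLE factors and the legacy method changed no call of a GPI gene, and library size alone added PIGW in HER2R against CEAR (edgeR adjusted p = 0.0441). With a library left out, the genes called numbered 189 to 1136 in HER2R against MKN45, 253 to 428 in CEAR against MKN45 and 103 to 1856 in HER2R against CEAR. The GPI genes called were then 0 to 1 lower, 0 to 1 higher and 0 to 4 lower. With 2 libraries per line, a GPI gene that did not pass the test is not shown to be equal between lines.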
